A study of Mus musculus with 6 samples.

Results

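The MAPK phosphatases are the dual-specificity phosphatases (DUSPs) that switch off mitogen-activated protein kinases, and 10 of their genes were listed by symbol: Dusp1, Dusp2, Dusp4, Dusp5, Dusp6, Dusp7, Dusp8, Dusp9, Dusp10 and Dusp16. A row with exactly that symbol was found for 9 of them among the 25330 genes of the count tables. Dusp2 was not analysed here. Of the 9 genes, 7 had more mRNA after hypoxia and reoxygenation (H/R) than in normoxic control cells. Dusp6 changed most, by 8.70-fold, while Dusp7 and Dusp9, the other genes of its class, did not pass the test.

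A MAP kinase is active when a threonine and a tyrosine in its activation loop carry phosphate, and these phosphatases remove both phosphates through a cysteine in their catalytic site. A docking domain at the amino terminus sets which kinases each enzyme binds. The family is usually divided into nuclear enzymes encoded by inducible genes (Dusp1, Dusp2, Dusp4 and Dusp5), cytoplasmic enzymes selective for ERK (Dusp6, Dusp7 and Dusp9), and enzymes that prefer the stress kinases JNK and p38 (Dusp8, Dusp10 and Dusp16). Several of them are themselves products of MAP kinase signalling and act as negative feedback. JNK activity is a known component of ischaemia-reperfusion injury of the liver.

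Expression was measured in AML12 cells, a wild-type mouse line of hepatocyte origin that was derived from a mouse transgenic for human TGF-alpha, an EGF receptor ligand. The 3 control libraries came from cells at 21% O2 and 5% CO2 in DMEM/F12 with 10% fetal bovine serum, ITS supplement and 40 ng/mL dexamethasone. The 3 H/R libraries (H6R2) came from cells that spent 6 h at 1% O2 without serum or glucose, followed by 2 h of reoxygenation. The sources used here do not say whether ITS and dexamethasone stayed in that medium, or which medium was used during reoxygenation. The part of oxygen and the part of the medium cannot be told apart in this design. The labels do not say that the libraries of a group were separate cultures, so the p-values measure the spread between these libraries, which may be technical.

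Between 20438746 and 21854790 reads were counted on genes in each library. Control replicate 1 stood apart from the other controls, with a chi-square per degree of freedom of 15.5 and 16.2 against them and 5.60 between those 2, and it held 542 counts of Alb (albumin) against 132 and 209. The hepatocyte genes Fga, Fgb, Serpina1a and Apoa2 had 61, 52, 61 and 60 counts in control replicate 1. Every other library held at most 1 count of each. Ttr, in contrast, was highest in control replicate 3 (344, 181 and 423 counts in the controls). The cause was not tested. The hepatocyte factor Hnf4a had 2035 to 3209 counts in every library, whereas Alb had 31 to 43 counts in the H/R libraries. The marker list of hepatocytes summed to between 4196 and 4544 CPM in the controls and between 6141 and 6172 CPM after H/R. Of its 9 tested genes, 2 were higher (Krt8 and Krt18) and 7 lower. Most of the sum came from Krt8 and Krt18. Their mean normalised counts were 51381 and 32116 in the controls and 81165 and 50688 after H/R. The highest mean of its other tested genes was 2912 (Hnf4a, controls). The list of cholangiocytes summed to between 1321 and 1486 CPM in the controls and between 2439 and 2533 CPM after H/R. All 3 of its tested genes were higher (Sox9, Krt19 and Krt7). Markers of leukocytes and Kupffer cells summed to 3.10 to 3.71 CPM and 8.66 to 10.1 CPM, with both tested genes higher (Cd68 and Csf1r). Ptprc had at most 3 counts, and Adgre1 and Clec4f at most 1 count, in any library. Lists of endothelial, stellate and red blood cells stayed at or below 1.13 CPM in every library. The part of these markers in the results was not tested, and in bulk libraries fewer cells of a type and less RNA per cell cannot be told apart.

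The catalytic signature of the family is a histidine and a cysteine followed, after a short variable stretch, by an arginine. Its coding bases are shown here because all the analysed genes carry this signature. It was found once in the coding sequence of each gene in GENCODE M21. Capitals mark the codons of the histidine and cysteine (left) and of the arginine (right).
Dusp1: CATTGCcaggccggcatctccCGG
Dusp4: CACTGCcaggccggcatctccCGA
Dusp5: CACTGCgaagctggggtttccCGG
Dusp6: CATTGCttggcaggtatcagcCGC
Dusp7: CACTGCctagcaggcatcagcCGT
Dusp9: CACTGTctggcaggggtcagcCGC
Dusp8: CACTGTctggctggcatctctCGC
Dusp10: CACTGCcaggccggcgtgtccCGA
Dusp16: CACTGCttagctgggatctctCGC

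Over the whole coding sequence, Dusp1 and Dusp4 were the most similar pair, with 66.83% identical bases relative to the longer sequence, followed by Dusp6 and Dusp7 with 65.09%. The least similar were Dusp1 and Dusp8 with 32.98%. Exon numbers given below count the stretches left after merging overlapping or adjoining exons listed for a gene. They can differ from the exon number of any 1 transcript. The counted exons of 8 genes overlapped no exon of another gene. The exception was Dusp8, where 66 bases (1.355% of its exon length) were shared with Gm45377 on the opposite strand, a gene with 0 to 2 counts in each library.

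The comparison asked how much mRNA of each phosphatase the cells held after H/R relative to normoxia. Read counts were scaled by TMM and tested with the quasi-likelihood test of edgeR. Genes count as called here where the p, adjusted over 14020 genes by Benjamini-Hochberg, was under 0.05. All 9 analysed genes passed the filter on low counts. Of these, 7 were called and all 7 were higher after H/R, where 62.8% of all tested genes were called in either direction, 31.0% higher and 31.8% lower. With a fold change of at least 2 as well, 6 of the 9 passed, where 8.52% of tested genes did so in either direction, 4.25% upward and 4.27% downward. The median log2 fold change was 1.45 over the 9 genes and -0.01 over all tested genes. The H/R libraries did not overlap the controls for 8 of the 9 genes, 7 of them higher and Dusp9 lower, which was the case for 65.9% of tested genes (32.5% higher and 33.5% lower). With 3 libraries against 3, the exact two-sided permutation test cannot give a p below 0.1, and it gave 0.1 for each of these 8 genes.

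**Figure D1:**
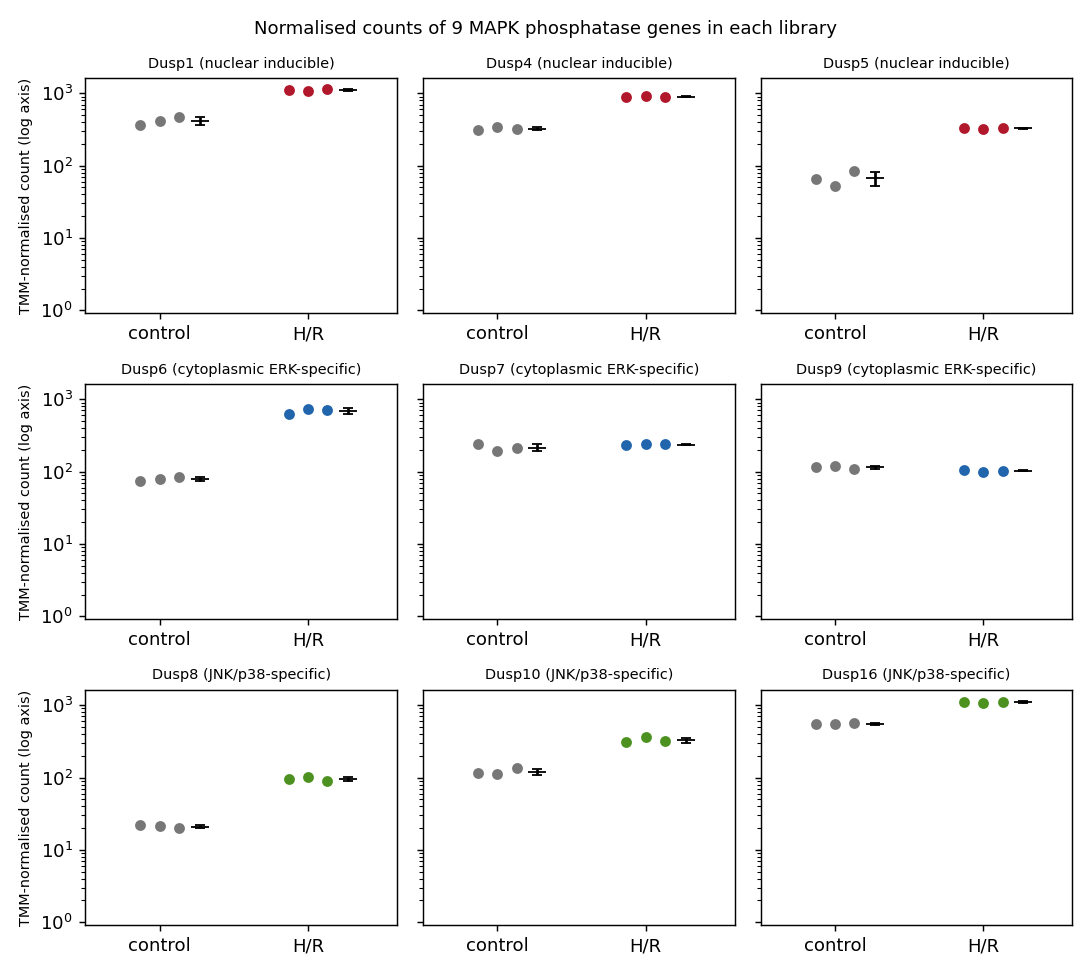
Normalised counts (TMM, log axis) of the 9 analysed genes in the 3 control and 3 H/R libraries, 1 panel per gene; points are libraries and bars are the mean ± SD. The H/R points lie above the control points for the 7 called genes, overlap them for Dusp7 and lie slightly below them for Dusp9.

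All 3 analysed genes of the nuclear inducible class rose, each by more than 2-fold. Dusp1 (MKP-1; chr17:26505590-26508519, minus strand, 2 exons) encodes the founding member, which acts on p38, JNK and ERK and is induced by stress, serum and glucocorticoids. Its normalised count was 366, 417 and 470 in the control libraries and 1119, 1080 and 1140 in the H/R libraries. The lowest H/R library was thus well above the highest control. The mean rose from 418 ± 51.7 to 1113 ± 30.8 (SD, n = 3 per group), a log2 fold change of 1.41 (SE 0.068, edgeR adjusted p = 5.15e-18). Control replicate 1 was the lowest of the controls, and without it the log2 fold change was 1.33.

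Dusp4 (MKP-2; chr8:34807297-34819894, plus strand, 4 exons) encodes the closest relative of Dusp1 and acts on the same kinases. It was counted at 314, 341 and 322 in the controls and at 891, 912 and 880.4 after H/R. Neither group varied by more than a small part of the distance between them. The mean went from 326 ± 13.9 to 895 ± 16.3, and the log2 fold change of 1.46 (SE 0.064, edgeR adjusted p = 5.06e-20) was close to that of Dusp1.

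Dusp5 (chr19:53529109-53542431, plus strand, 4 exons) encodes a nuclear enzyme that is selective for ERK and holds inactive ERK in the nucleus. The controls had 65.3, 52.7 and 83.8 normalised counts and the H/R libraries 331, 320.3 and 331. The controls were spread over a wider range, relative to their mean, than those of any other analysed gene, but all 3 lay far below the H/R libraries. Mean levels were 67.3 ± 15.6 and 327 ± 6.01, and the log2 fold change of 2.28 (SE 0.12, edgeR adjusted p = 1.14e-17) was the largest of the nuclear class. Of the 14020 tested genes, 72 had a larger log2 fold change than Dusp5, against 258 for Dusp4 and 282 for Dusp1.

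The class of cytoplasmic ERK phosphatases did not move as 1 group. Dusp6 (MKP-3; chr10:99263231-99267488, plus strand, 3 exons) encodes the enzyme that holds ERK in the cytoplasm and inactivates it, and its transcription is a common readout of ERK activity. Its normalised count was 73.9, 80.0 and 84.7 in the controls and 627, 739.8 and 712 after H/R. Every H/R library held several times the count of every control library. The mean rose from 79.5 ± 5.45 to 693 ± 58.8, which is a log2 fold change of 3.12 (SE 0.097, 95% interval 2.92 to 3.32, edgeR adjusted p = 2.04e-24). Of the tested genes, 33 had a larger log2 fold change.

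Dusp7 (chr9:106368632-106375724, plus strand, 4 exons) encodes the relative of Dusp6 with the same substrate. Its controls were at 241, 192 and 209.9 normalised counts and its H/R libraries at 232, 237 and 241. The groups overlapped: 2 of the 3 H/R values lay within the range of the controls, and the other was just above the highest control. The log2 fold change was 0.14 (SE 0.099, 95% interval -0.06 to 0.34, edgeR adjusted p = 0.215), and the exact permutation p was 0.3. Control replicate 1 was the highest control library for this gene, and without it the log2 fold change was 0.23 (edgeR adjusted p = 0.0638).

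Dusp9 (MKP-4; chrX:73639419-73643514, plus strand, 4 exons) encodes the third enzyme of the class. It was at 116, 120.0 and 107 normalised counts in the controls and at 104, 100.3 and 103 in the H/R libraries. The H/R values were the lower ones without overlap, but the gap between the groups was small beside the spread of the controls. The log2 fold change was -0.16 (SE 0.13, 95% interval -0.42 to 0.11, edgeR adjusted p = 0.313). The intervals of Dusp7 and Dusp9 both lie wholly below that of Dusp6.

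The 3 genes of the JNK and p38 class all rose, by different amounts. Dusp8 (chr7:142079490-142095843, minus strand, 8 exons) encodes a phosphatase known mainly from brain and heart and was the least abundant of the analysed genes. Its raw counts were 23, 22 and 21 in the controls and 90, 95 and 90 after H/R, which became 21.8, 21.5 and 19.8 and 96.9, 102 and 89.9 after scaling. No H/R library came near the controls. The log2 fold change was 2.19 (edgeR adjusted p = 1.08e-11), and its SE of 0.20 was the largest, and its counts the lowest, among the 9 genes.

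Dusp10 (MKP-5; chr1:184013302-184075636, plus strand, 6 exons) encodes an enzyme of JNK and p38 that is found in nucleus and cytoplasm. The control libraries had 116, 113 and 134 normalised counts and the H/R libraries 313, 360.2 and 318. The groups were clearly separate. The mean rose from 121 ± 11.0 to 330.5 ± 25.9, with a log2 fold change of 1.45 (SE 0.10, edgeR adjusted p = 2.62e-14).

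Dusp16 (MKP-7; chr6:134715468-134792625, minus strand, 10 exons) encodes a JNK-selective enzyme that shuttles between nucleus and cytoplasm. Its counts were 541, 547 and 564 in the controls and 1105, 1069.9 and 1123 after H/R. Both groups were tight and far apart. The mean rose from 551 ± 12.0 to 1099 ± 27.1, and the log2 fold change of 1.00 (0.998 before rounding, SE 0.057, edgeR adjusted p = 5.74e-17) was just under the 2-fold threshold. DESeq2 placed it just beyond that threshold, at 1.01, as did the fits without control replicate 3 (1.02) and without H/R replicate 2 (1.02), so that 7 of the 9 genes passed in those fits.

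**Figure D2:**
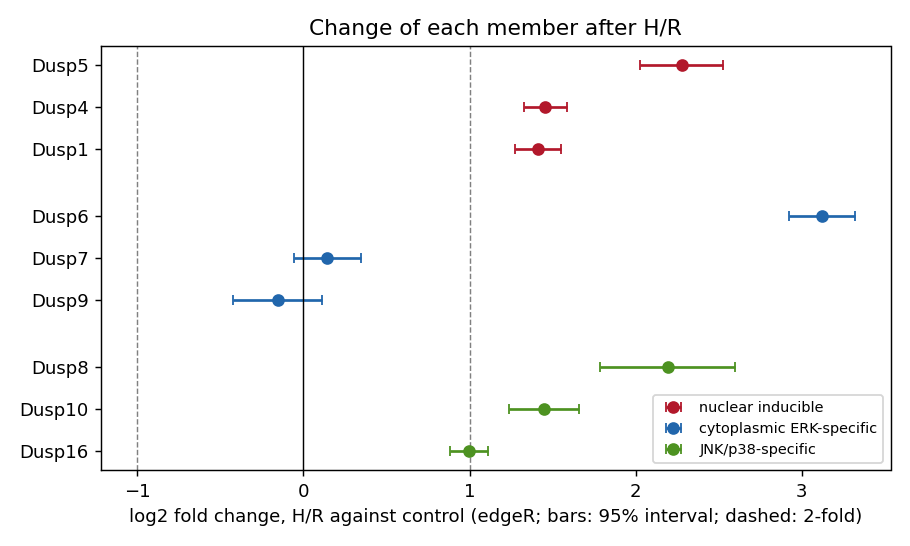
Log2 fold change of each gene after H/R against control, grouped by class, with the 95% interval from edgeR; the dashed lines mark 2-fold. Dusp6 stands at 3.12 while Dusp7 and Dusp9 of the same class straddle 0, and the other 6 genes lie between 1.00 and 2.28.

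By class, the median log2 fold change was 1.46 for the nuclear genes (range 1.41 to 2.28), 1.45 for the JNK and p38 genes (1.00 to 2.19) and 0.14 for the cytoplasmic ERK genes (-0.16 to 3.12). The nuclear and the JNK and p38 classes therefore covered overlapping ranges, and the cytoplasmic class spanned a wider range than either, with the largest change in the family and both genes that did not pass. With 3 genes per class these medians are descriptions only.

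Levels of different genes can be compared only per length of transcript, for which the deposited RPKM values were used. These are scaled to library totals, and with that scaling the 14020 tested genes had a median log2 fold change of -0.12 rather than -0.01. In the controls Dusp1 had the highest mean (7.60 RPKM), followed by Dusp4 (5.82), Dusp16 (3.46), Dusp7 (3.12), Dusp9 (2.05), Dusp10 (1.95), Dusp6 (1.39), Dusp5 (1.33) and Dusp8 (0.211). The ranges of the libraries overlapped for the neighbours Dusp16 and Dusp7, Dusp9 and Dusp10, and Dusp6 and Dusp5, so the order within these pairs was not resolved. After H/R the order was Dusp1 (18.8 RPKM), Dusp4 (14.9), Dusp6 (11.3), Dusp16 (6.42), Dusp5 (6.03), Dusp10 (4.95), Dusp7 (3.21), Dusp9 (1.72) and Dusp8 (0.902), with no overlap between neighbours. Dusp6 thus moved from rank 7 to rank 3 and Dusp5 from rank 8 to rank 5, while Dusp7 and Dusp9 took ranks 7 and 8 after H/R, below Dusp6, Dusp5 and Dusp10. Dusp1, Dusp4, Dusp10 and Dusp8 had the same rank in both groups. Ranks in the controls within the 3 overlapping pairs are those of the means only.

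Added together, the 9 genes gave 25.6, 26.4 and 28.8 RPKM in the controls and 66.5, 68.6 and 69.4 RPKM after H/R. The mean of this sum after H/R was 2.53 times that of the controls (68.2 ± 1.52 against 26.9 ± 1.67 RPKM). Dusp6 made up 5.17% ± 0.157 of the sum in the controls and 16.5% ± 1.16 after H/R. The share of Dusp7 was 11.6% ± 1.65 and 4.71% ± 0.0415, and that of Dusp9 was 7.65% ± 0.724 and 2.52% ± 0.0874. With these shifts in opposite directions, the cytoplasmic ERK class as a whole held 26.5%, 24.0% and 22.9% of the sum in the controls and 22.6%, 24.6% and 24.1% after H/R, with overlap between the groups. The groups were thus not separated by the share of the class, while within it Dusp6 took a larger part, and Dusp7 and Dusp9 smaller ones, in every H/R library.

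The nuclear class held 52.3%, 55.4% and 56.3% in the controls and 59.4%, 57.1% and 58.2% after H/R. For the JNK and p38 class the shares were 21.2%, 20.6% and 20.8%, and 18.0%, 18.3% and 17.7%. The H/R libraries were above the controls for the nuclear class and below them for the JNK and p38 class, by a few percentage points in each case. All 9 genes contribute to the denominator, so the shares are not independent of each other.

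**Figure D3:**
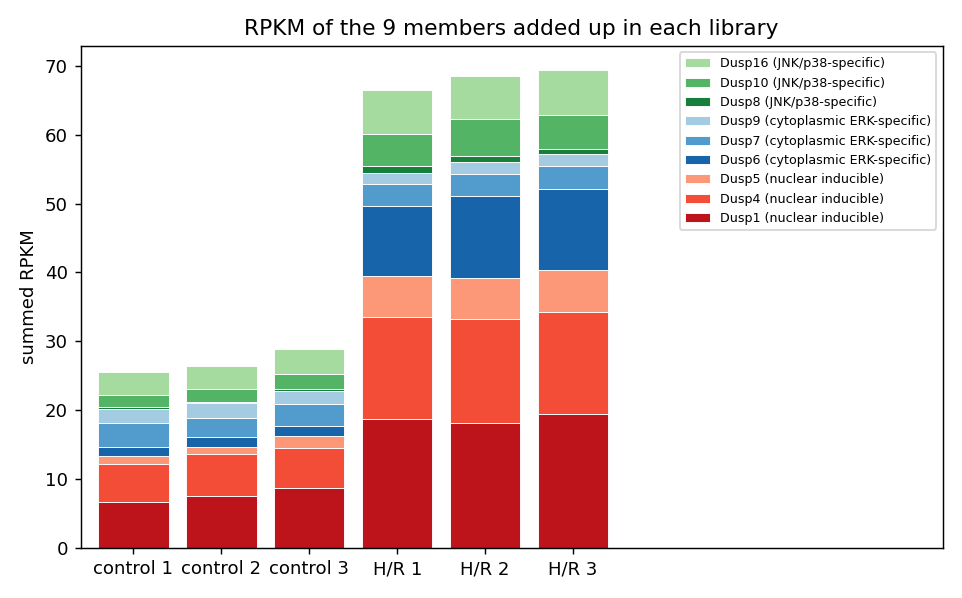
RPKM of the 9 genes stacked in each of the 6 libraries, in shades of red for nuclear, blue for cytoplasmic ERK and green for JNK and p38 phosphatases. The total lies between 25.6 and 28.8 in the controls and between 66.5 and 69.4 after H/R, and the Dusp6 segment (darkest blue) grows from a mean of 1.39 to 11.3 RPKM.

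Ratios between 2 genes of the same library do not depend on how libraries are scaled, and 5 pairs were compared in this way, as log2 ratios of counts with 0.5 added. Each of the nuclear genes was set against Dusp6. Dusp1 exceeded Dusp6 by 2.30, 2.38 and 2.46 (log2 ratio) in the controls and by 0.84, 0.54 and 0.68 after H/R, a mean difference of -1.69. For Dusp4 over Dusp6 the ratios were 2.08, 2.09 and 1.92, and 0.51, 0.30 and 0.31, a difference of -1.66. Dusp5 over Dusp6 was at -0.18, -0.60 and -0.02 in the controls and at -0.92, -1.21 and -1.10 after H/R, a difference of -0.81. The excess of Dusp1 and Dusp4 counts over Dusp6 was thus smaller in every H/R library. The count of Dusp5 was below that of Dusp6 in every library, and nearly level with it in 1 control library. Counts do not allow for length. In RPKM, Dusp5 was above Dusp6 in control replicate 3 (1.69 against 1.51) and below it in control replicate 2 (1.04 against 1.39).

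Within the JNK and p38 class, Dusp8 over Dusp16 was at -4.60, -4.64 and -4.80 in the controls and at -3.50, -3.38 and -3.64 after H/R, a difference of 1.18. Dusp10 over Dusp16 was at -2.21, -2.27 and -2.07, and -1.82, -1.57 and -1.82, a difference of 0.45. Dusp16 was thus the gene of its class that gained least relative to both others. For all 5 pairs the groups did not overlap and the exact permutation p was 0.1, the smallest possible, both before and after Benjamini-Hochberg adjustment over the 5 pairs. The ratios of Dusp7 and Dusp9 to Dusp6 were added after the values had been seen and were not tested. Their means went from 1.42 to -1.54 for Dusp7 and from 0.52 to -2.75 for Dusp9, so that Dusp6 passed from the lowest to the highest count of the 3.

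**Figure D4:**
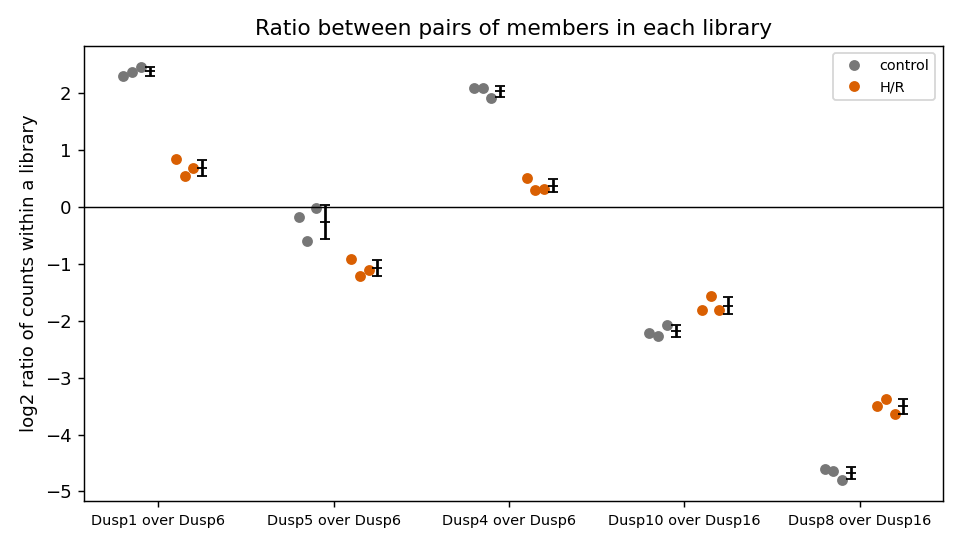
Log2 ratio of the counts of 2 genes within each library for the 5 pairs; points are libraries, bars are the mean ± SD of the 3 control (grey) and 3 H/R (orange) libraries. The first 3 pairs lie lower after H/R and the last 2 higher, without overlap.

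Because 7 genes rose together, the sequences before their start sites were read from RefSeq (GRCm38.p6), where 7 of the 9 analysed genes had an entry and Dusp4 and Dusp9 had none. Of these entries 5 are shown, each with the 250 bases before the start site, 5′ to 3′: Dusp6 and Dusp7 as the closely related pair with the largest and with no called change, and Dusp1, Dusp5 and Dusp8 as the genes with the most matches. Capitals mark matches, on either strand, to the motifs searched. These were the full cAMP response element (CRE, TGACGTCA), its short form TGACG, the AP-1 site TGANTCA, the CArG box of serum response factor, and the hypoxia response element (HRE) core as ACGTG or GCGTG.
Dusp6 (chr10:99262981-99263230, plus strand): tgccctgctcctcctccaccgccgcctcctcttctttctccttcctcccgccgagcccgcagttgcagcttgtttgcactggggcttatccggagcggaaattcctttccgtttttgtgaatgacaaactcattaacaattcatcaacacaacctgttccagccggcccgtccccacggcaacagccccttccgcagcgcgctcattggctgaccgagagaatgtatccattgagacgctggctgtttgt
Dusp7 (chr9:106368382-106368631, plus strand): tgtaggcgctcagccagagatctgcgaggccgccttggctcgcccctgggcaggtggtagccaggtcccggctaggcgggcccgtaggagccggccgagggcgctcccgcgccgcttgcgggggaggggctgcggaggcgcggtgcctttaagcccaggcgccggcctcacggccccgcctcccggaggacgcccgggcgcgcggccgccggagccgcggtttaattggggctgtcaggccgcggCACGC
Dusp1 (chr17:26508473-26508722, minus strand): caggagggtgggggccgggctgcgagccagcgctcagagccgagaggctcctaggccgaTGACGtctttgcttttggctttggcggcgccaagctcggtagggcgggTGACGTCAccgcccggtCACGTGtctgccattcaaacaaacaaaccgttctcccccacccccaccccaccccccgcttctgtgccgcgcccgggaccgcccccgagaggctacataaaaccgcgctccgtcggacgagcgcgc
Dusp5 (chr19:53528895-53529144, plus strand): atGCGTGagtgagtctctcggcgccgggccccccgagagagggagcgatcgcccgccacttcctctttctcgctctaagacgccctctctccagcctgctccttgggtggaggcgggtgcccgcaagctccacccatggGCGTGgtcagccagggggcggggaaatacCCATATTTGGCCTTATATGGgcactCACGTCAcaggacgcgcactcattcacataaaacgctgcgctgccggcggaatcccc
Dusp8 (chr7:142095285-142095534, minus strand): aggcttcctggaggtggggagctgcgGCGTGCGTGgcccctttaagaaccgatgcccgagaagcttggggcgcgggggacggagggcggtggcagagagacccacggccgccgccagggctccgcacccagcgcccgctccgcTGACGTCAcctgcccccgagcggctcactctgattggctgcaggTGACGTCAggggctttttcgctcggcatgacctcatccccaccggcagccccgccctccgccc

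The full CRE, which contains the short form on both strands, was found 143 bases before the start of Dusp1 and 107 and 63 bases before that of Dusp8. It occurred in 1.79% of all 32851 promoter entries searched over the same 300 bases (250 before and 50 after the start). Dusp5 had adjoining CArG boxes 82 and 72 bases before its start, a motif found in 1.63% of entries. Between the CArG boxes and the start, 57 bases before it, an A-form HRE core of Dusp5 overlapped a short CRE. The short CRE, present in 20.8% of entries, was also found 191 bases before the start of Dusp1 and 70 bases before that of Dusp16.

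Dusp1 had the A-form HRE core on both strands of a palindrome 126 bases before its start, and this form occurred in 19.6% of entries. The G form, present in 32.4% of entries, was matched in Dusp5, in Dusp8 and 5 bases before the start of Dusp7. No AP-1 site was found in the 7 entries, against 7.81% of all entries. Dusp6 and Dusp10, both called, matched none of the motifs in this window. The matches describe letters in a window and not sites of binding.

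The 7 entries were richer in G and C than most: they held from 57.33% (Dusp6) to 78.67% (Dusp7) G and C against a median of 52.67%, and from 19 (Dusp6) to 41 (Dusp7) CpG dinucleotides against a median of 7. Dusp6 therefore had the lowest and Dusp7 the highest value of the 7 on both measures. The CRE and HRE motifs contain CpG, and their shares over all entries given above were not matched for CpG content. The RefSeq start of Dusp10 lay 21079 bases inside the gene of the count tables and that of Dusp8 lay 559 bases inside. The other starts were within 47 bases of the gene's first base.

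**Figure D5:**
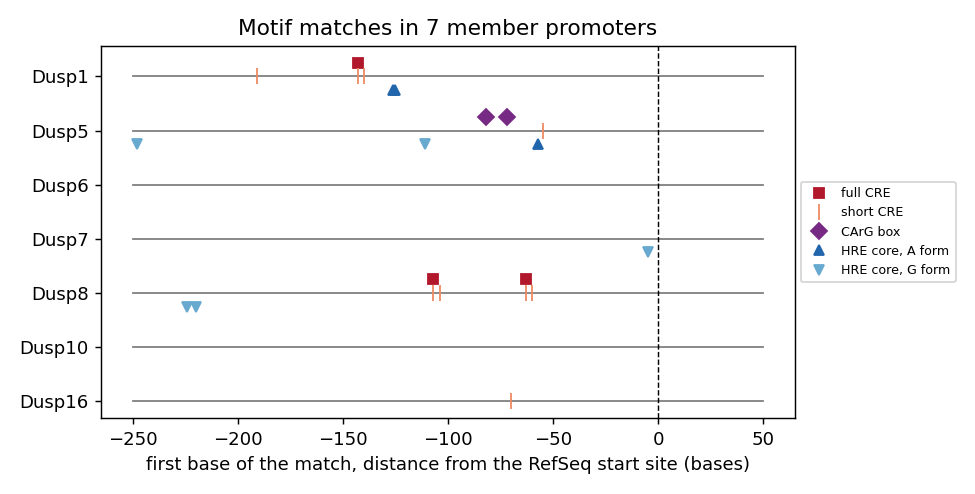
Position of the motif matches in the 7 RefSeq promoter entries, in bases from the start site (dashed line); squares are the full CRE, ticks the short CRE, diamonds CArG boxes and triangles HRE cores. Dusp6 and Dusp10 have no match, and the full CRE appears only in Dusp1 and Dusp8 among these 7.

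The kinases on which the phosphatases act were examined in the same fit. Of 10 tested MAP kinase genes, 4 were higher, 3 lower and 3 did not pass, with a median log2 fold change of 0.06. These counts, and those of the lists that follow, stand beside 31.0% higher and 31.8% lower among all tested genes. Mapk7 (ERK5) and Mapk8 (JNK1) were both higher by 0.59 on the log2 scale (edgeR adjusted p = 1.38e-09 and 2.59e-09) and Mapk6 (ERK3) was lower (-0.24, adjusted p = 7.05e-06). The 1 gene past 2-fold was Mapk4, with mean normalised counts of 7.29 and 21.1, which is named because it was alone in this. One step up, 3 of 7 MAP2 kinases were higher and 3 lower, among them Map2k1 (MEK1, 0.84) and Map2k3 (-0.59), an activator of p38. Of 15 RAF and MAP3 kinases 4 were higher and 8 lower, with Map3k2 (1.01) and Map3k1 (1.18) past 2-fold upward. Map3k8, named after its value was seen, was past 2-fold downward (-1.82, edgeR adjusted p = 0.000172). It had the largest change of that list, at a mean normalised count of only 5.62 after H/R. Of 7 genes of RAS activation 1 was higher (Sos2, 0.42) and 2 were lower (Hras, -0.55, and Nras, -0.31).

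Phosphatases of 2 other lists were read as well, and none of their 14 tested genes passed 2-fold. Of 9 tested atypical DUSPs, which lack the MAP kinase docking domain, 4 were higher and 2 lower, with a median log2 fold change of 0.07. The called genes with the smallest adjusted p were Dusp11 (0.68), Dusp3 (0.45) and Dusp14 (0.66), all higher. The lower genes, named after their values were seen, were Dusp19 (-0.94, edgeR adjusted p = 1.95e-05) and Dusp28 (-0.54, edgeR adjusted p = 0.0259), and Dusp19 had the largest change of the list in either direction. Among 5 tested phosphatases of other families that act on MAP kinases none was higher, and Ppp2cb (-0.17) and Ppm1b (-0.11) were lower.

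Genes downstream of the MAP kinases were read in 4 lists, again beside 31.0% higher and 31.8% lower among all tested genes. Of 7 tested feedback inhibitors 5 were higher and none lower (median 0.60), with Spry4 (2.39, adjusted p = 8.67e-07, from mean counts of 5.10 to 27.2) and the EGF receptor inhibitor Errfi1 (1.71, adjusted p = 7.83e-17) past 2-fold. Of 8 genes of ERK transcriptional output 5 were higher (median 1.04), among them Epha2 (2.08) and Phlda1 (2.71), and 2 were lower. The lower ones, named after their values were seen, were Etv4 (-0.59) and the cyclin gene Ccnd1 (-0.61), both also known as ERK targets. All 9 tested immediate-early genes were higher (median 2.30), with Egr1 at 6.56 and Atf3 at 3.56. Of 9 MAPK-activated kinases 5 were higher and 3 lower, with Mapkapk2, a substrate of p38, at 0.95 and Mknk2 at -0.81.

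Since Dusp1 is also a glucocorticoid target and the control medium held dexamethasone, genes of that response were read alongside. Of 7 tested, 3 were higher (Errfi1, Per1 at 0.41 and Klf9 at 0.31) and 1 was lower, with a median log2 fold change of 0.11. Errfi1 (1.71) is also in the list of feedback inhibitors above. The remaining genes are named after their values were seen. Sgk1 was lower (-0.17), and Fkbp5 (0.10), Tsc22d3 (0.08) and Zbtb16 (0.11) did not pass. A check list of hypoxia genes had 5 of 6 higher by over 2-fold, among them Ndrg1 (3.24) and Vegfa (1.74), where 4.25% of all tested genes were. The other gene, Car9, did not pass (-0.17, edgeR adjusted p = 0.686, mean normalised counts of 16.6 and 14.7).

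The genes whose profile over the 6 libraries was nearest to that of 1 gene per class, the one with the smallest adjusted p (Dusp4, Dusp6 and Dusp16), were found by the Euclidean distance between mean-centred log2 CPM values. Nearest to Dusp6 were Icam1 (distance 0.17, log2 fold change 3.20) and Slc2a1 (0.20 and 3.01). Dusp4 was closest to Nedd4l (0.076) and Arhgap22 (0.081), and Dusp16 to Skil (0.081) and Inhbb (0.083). The distance to the nearest gene was about as small for Dusp4 as for Dusp16, and larger for Dusp6, whose H/R libraries were also more spread. These likenesses rest on the same 6 libraries and include the difference between the groups.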

How the data were processed

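The data were 6 mouse RNA-seq libraries of AML12 cells, 3 control and 3 H6R2. Per the methods and the submitters' processing notes, libraries from a stranded mRNA kit were read from both ends and aligned to GRCm38 by a program given as STRA 2.5.3a, with Trimmomatic 0.36 and featureCounts of Subread 1.5.1 also named. The deposited counts are unnormalised whole numbers. The authors' RPKM values follow from count, exon length and library total (largest relative error 1.13e-06). Whether reads were counted by strand is not given in the sources used here.

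Counts were analysed with edgeR 4.0.16 in R 4.3.3 (filterByExpr, TMM, glmQLFit robust, glmQLFTest). Of 25330 genes, 14020 were tested and 11310 were removed by the filter. Calls needed an adjusted p under 0.05 and, for the stricter count, a fold of at least 2. Normalised counts are counts over the effective library size times its mean. SEs came from the F statistic. Permutation tests were exact and two-sided. Alternatives used DESeq2 1.42.0, limma 3.58.1, other scalings and filters, and left out each library. The fits were tested on simulated data. Genes of other lists were named by the smallest adjusted p, at most 3 per list, and nearest genes by distance (2 per class). The members and lists were chosen with earlier results of these data known. Coordinates are those of the count tables or RefSeq, counted from 1.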

Additional observations from a re-analysis of the deposited data

How the results depend on the processing

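No fold change, pair ratio or class median reversed under the alternatives run. At the adjusted p threshold 7 genes were called under each alternative except the limma fits on log2(RPKM + 1) and log2(RPKM + 0.1), which called 8. The addition was Dusp9, lower in both, at -0.17 (adjusted p = 0.0273) and -0.25 (adjusted p = 0.0292). Elsewhere its adjusted p ranged from 0.0877 (edgeR scaled by library totals, log2 fold change -0.26) to 0.592 (DESeq2). At both thresholds the count was 6 in the main analysis, 5 with log2(RPKM + 1), where Dusp8 was at 0.65, and 7 with DESeq2, with a threshold of 1.5-fold and in 2 of the 6 fits that left out a library (range 6 to 7), Dusp16 being the gene that entered. All genes past both thresholds numbered 406 with log2(RPKM + 1) against 1195. The 596 higher and 599 lower genes became 476 and 810 when scaled by totals, and 516 and 734 by upper quartiles. The median log2 fold change of the nuclear class was 1.39 by upper quartiles and 1.35 by totals, and that of the cytoplasmic class 0.0726 and 0.0388. Leaving out each library gave 3.07 to 3.19 for Dusp6, 2.13 to 2.47 for Dusp5, 0.07 to 0.23 for Dusp7 and, for the ratio of Dusp1 to Dusp6, -1.77 to -1.62. The cause of these shifts was not tested.

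Libraries with the same number showed no sign of pairing (correlations of deviations -0.027, 0.0048 and -0.014 for numbers 1, 2 and 3). The labels do not say whether such libraries were prepared together, and these correlations cannot settle it. With the library number as a replicate block, the counts were again 7 and 6, and Dusp6 had a log2 fold change of 3.12.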
